A study of Homo sapiens with 20 samples.

Results

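The annexins are a family of proteins that bind phospholipid membranes when calcium rises. Transcripts of 10 annexin genes (ANXA1, ANXA2, ANXA3, ANXA4, ANXA5, ANXA6, ANXA7, ANXA10, ANXA11 and ANXA13) were followed in POLR1D-silenced colorectal cancer cells, out of 36346 gene names in all. The members were chosen by name, with the levels in control cells and the responses to silencing already known, ANXA1 for a larger response in SW480 than in HT29. These levels and responses are therefore given as a description, without p values. Counts of members past a threshold stand beside the share of all genes past it, and nothing is read from them. RNA was sequenced from HT29 and SW480, established colorectal carcinoma cell lines that each descend from a single tumor, after transient transfection. The control siRNA was scrambled (SCR), and silencing used siPOLR1D2 or siPOLR1D3, a pair of siRNAs against POLR1D. HT29 contributed 4 SCR, 2 siPOLR1D2 and 2 siPOLR1D3 libraries, and SW480 contributed 6, 3 and 3. POLR1D encodes a subunit shared by RNA polymerases I and III, and the knockdown served to find transcripts that depend on it.

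Each annexin carries a conserved core that holds calcium between the protein and acidic lipids of the membrane, and an N-terminal tail that differs between members and binds their partners. Annexins organise membrane patches, take part in exocytosis and in the sealing of torn plasma membranes, and several also act outside the cell. In the gut epithelium annexin A1 is known as an anti-inflammatory and wound-closing mediator, annexin A2 as a surface platform for plasmin formation, annexin A13 as an intestinal member and annexin A10 as a gastric one.

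The values are read counts normalized with DESeq2 within each cell line. The depth, estimated from the value taken as 1 read, was between 13500000 and 27600000 reads per library. POLR1D itself averaged 5048 (SD 699.7) over the SCR libraries and 3078 (SD 451.7) over the silenced libraries of HT29, n = 4 each, and 2116 (SD 281) and 1036 (SD 183) in SW480, n = 6 each, with no overlap in either line. The epithelial markers EPCAM, KRT8 and KRT18 were high in all 20 libraries, while CDX2 was at most 0.465 in HT29 SCR libraries and KRT20 at most 11.2 in SW480 SCR libraries. In SW480, 2 of the 8 epithelial markers were called by limma after silencing, both higher, beside 6.73% of all genes called in either direction. KRT20, a keratin of differentiated colonocytes, went from between 1.73 and 11.2 in SCR to between 20.7 and 94.6 in silenced libraries (log2 difference 2.74, SE 0.48, adjusted p = 0.00698), and KRT19 had 0.70 (SE 0.16, adjusted p = 0.0226). KRT20 was at 3813 in HT29 SCR replicate 1, and 1 silenced SW480 library held HT29 transcripts, as described below. These KRT20 and KRT19 differences include that library and are not given without it or by side. In HT29 0 of 7 tested epithelial markers were called, beside 0.0% of all genes. The part of these changes in the annexin results was not tested. Of the other markers, the 3 leukocyte genes summed to at most 167 and the 2 endothelial genes to at most 136 in any library. The 3 fibroblast genes summed to between 14.1 and 24.6 in SCR and between 24.9 and 71.4 in silenced HT29 libraries, and to between 97.8 and 1120 in SW480.

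Some libraries stood apart. In HT29 the first principal component held 43.3% of the variance and set SCR replicate 1, at 88.3, apart from the other 7 libraries, between -21.1 and 18.7. In SW480 the first principal component of the 12 libraries held 42.0% of their variance and split them into a side A (SCR replicates 1, 2 and 3 and siPOLR1D2 replicates 1 and 2) and a side B (SCR replicates 4, 5 and 6, siPOLR1D2 replicate 3 and all 3 siPOLR1D3 libraries). Sides were set by the sign of the score. SCR replicate 1 of SW480 lay between them, at 14.1, with the rest of side A at 52.7 or more and side B at -21.8 or less. All results by side rest on this placement, which was not varied. In addition, siPOLR1D2 replicate 1 held transcripts typical of HT29. For 12 genes above 300 in every HT29 SCR library and below 8 in every SW480 SCR library, ANXA10 left aside, this library was at a median of 2.84% of the HT29 level, and the other 11 SW480 libraries were at 0.462% or less. The SCR libraries among these 11 were low by the choice of genes, so only the other silenced SW480 libraries are a free comparison. Its origin was not tested. Values without HT29 SCR replicate 1, by side and without this library are given below beside the pooled ones.

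The sequences before the start sites of ANXA1, ANXA10 and ANXA2 are shown first. ANXA1 had the largest change after silencing, ANXA10 had a clear level in HT29 and at most 4.93 in SW480 SCR libraries, and ANXA2 was the most abundant member. Promoter windows from RefSeq (GRCh38.p14), 250 bases before to 50 after each start, were found for 9 of the 10 members, 13 windows in all, and ANXA13 had none. The 250 bases before the start are printed 5′ to 3′ on the strand of the gene, with TATAAA, the core of the TATA box, in capitals.
ANXA1, chr9:73151615-73151864, plus strand: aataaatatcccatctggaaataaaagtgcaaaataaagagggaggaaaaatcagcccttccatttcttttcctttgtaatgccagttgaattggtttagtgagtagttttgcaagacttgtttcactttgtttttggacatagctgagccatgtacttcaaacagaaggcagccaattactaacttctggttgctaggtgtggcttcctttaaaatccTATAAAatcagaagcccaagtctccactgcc
ANXA10, chr4:168092287-168092536, plus strand: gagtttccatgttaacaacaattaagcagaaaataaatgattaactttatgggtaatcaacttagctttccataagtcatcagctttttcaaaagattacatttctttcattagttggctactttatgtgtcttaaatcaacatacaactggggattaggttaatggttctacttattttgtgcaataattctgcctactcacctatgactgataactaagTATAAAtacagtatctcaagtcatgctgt
ANXA2, chr15:60397987-60398236, minus strand: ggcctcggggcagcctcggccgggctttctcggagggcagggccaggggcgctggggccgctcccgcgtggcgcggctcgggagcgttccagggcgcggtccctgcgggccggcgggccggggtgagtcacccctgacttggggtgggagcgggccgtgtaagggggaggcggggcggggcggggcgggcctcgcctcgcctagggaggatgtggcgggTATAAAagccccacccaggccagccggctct

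In these 3 windows TATAAA began 31 (ANXA1), 29 (ANXA10) and 31 (ANXA2) bases before the start. Searched on both strands of all 300 bases, TATAAA was present in 4 of the 13 annexin windows, the fourth being 1 of 3 windows of ANXA11, and in 11.5% of the 35116 windows of all genes. ANXA1 and ANXA10 were otherwise unlike their relatives. Their windows held 37.7% and 32.7% G and C and 0 CpG dinucleotides each. The 11 windows of the other members held between 51.7% and 78.0% G and C and between 7 and 44 CpG, against a median of 58.7% and 14 over all genes, and 3.96% of all windows had no CpG. The motif CCAAT was in 4 annexin windows, ANXA1 among them, and in 34.6% of all windows. The AP-1 motif TGAGTCA or TGACTCA was found in the ANXA2 window alone among the 13 and in 4.95% of all windows. These matches describe letters in the reference genome and were not tested for binding.

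In SCR cells ANXA2 was the leading annexin of both lines. Levels between genes are compared as parts per 1000000 of the summed values of a library, called the relative level here, and per kilobase of the longest coding transcript in GENCODE 29 (positions in GRCh38). ANXA2 (chromosome 15, 60347134 to 60402883, minus strand) had a level per length of 887 ± 123 (SD, n = 4) in HT29 and 961 ± 184 (SD, n = 6) in SW480. It made up 44.0% of the summed relative level of the 10 members in HT29 and 55.8% in SW480, before length was considered. The next level per length was that of ANXA5, the phosphatidylserine-binding anticoagulant annexin, at 291 ± 54.7 in HT29 and 179 ± 54.6 in SW480.

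Below these, the order differed between the lines. In HT29 ANXA1 followed with a level per length of 235 ± 18.2, its range overlapping that of ANXA5, and then came ANXA3 (132 ± 35.7), ANXA10 (88.8 ± 15.2) and ANXA4 (82.8 ± 14.3), each overlapping the next. ANXA7 was at 47.8 ± 1.29 and ANXA11 at 21.6 ± 2.11, while ANXA13 (1.52 ± 0.578) and ANXA6 (1.12 ± 0.604) closed the order and overlapped. In SW480 ANXA5, ANXA3 (113 ± 26.1), ANXA1 (104 ± 41.4) and ANXA6 (91.2 ± 20.5) overlapped from each to the next. ANXA4 (39.7 ± 9.24) and ANXA7 (34.0 ± 2.92) overlapped as well, ANXA11 was at 13.2 ± 0.767, and ANXA13 (0.431 ± 0.162) and ANXA10 (0.0719 ± 0.0693) were last. The length taken moves some of these places. With the shortest principal transcript of ANXA11, 2.53 kb in place of 6.96 kb, its level per length was 59.4 in HT29 and 36.4 in SW480, which put it before ANXA7 in HT29. With that choice ANXA1 stood before ANXA5 in HT29, at 343, and before ANXA3 in SW480, at 152. Coding transcripts were enriched by capture, and differences in capture between genes were not measured.

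**Figure D1:**
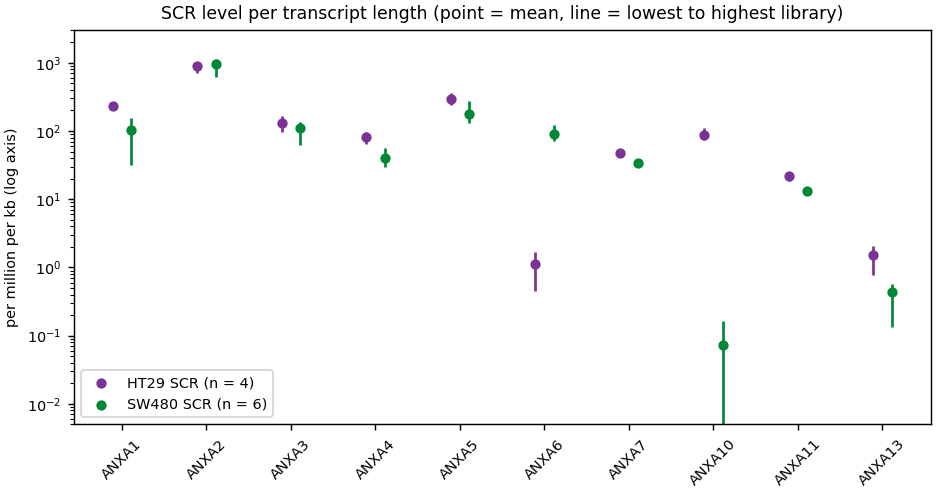
Relative level per kilobase (log axis) of the 10 annexin transcripts in the SCR libraries of HT29 (n = 4) and SW480 (n = 6); points are means and lines run from the lowest to the highest library, with libraries at 0 below the axis. ANXA6 lies near 1 in HT29 and near 91 in SW480, and ANXA10 lies near 89 in HT29 and below 0.2 in every SW480 SCR library.

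The lines differed most in ANXA6 and ANXA10. Annexin A6, whose core is duplicated and which organises cholesterol and late endosomes, had a relative level of 2.90 ± 1.57 (SD, n = 4) in HT29 and 236 ± 53.3 (SD, n = 6) in SW480, 81.6-fold higher. ANXA10 had a relative level of 126 ± 21.5 in HT29, and in SW480 SCR libraries between 0 and 0.235, so no fold is given. ANXA1 was 2.26-fold higher in HT29, with a relative level of 518 ± 40.3 against 229 ± 91.6, and ANXA4, an epithelial member that modulates ion channels and the Golgi, was 2.09-fold higher. ANXA7, ANXA11 and ANXA13 were also higher in HT29, by 1.41-fold, 1.63-fold and 3.52-fold. The SCR ranges of the lines did not overlap for these 7 members, 6 higher in HT29 and 1 in SW480, beside 43.2% of the 15569 genes tested in either line (15.4% higher in HT29 and 27.8% in SW480). ANXA2, ANXA3 and ANXA5 overlapped. The lines were normalized separately, so these relative levels were not tested, and less RNA per cell cannot be told apart from fewer expressing cells in such bulk samples.

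In SW480 most annexins were lower in silenced than in SCR cells, and ANXA1 had the largest difference. Annexin A1 (chromosome 9, 73151757 to 73170393) is induced by glucocorticoids and acts through formyl peptide receptors. Its normalized read count was 5816, 1616, 4227, 6892, 5618 and 5350 in SCR replicates 1 to 6. With siPOLR1D2 it was 1431, 1170 and 1974, and with siPOLR1D3 it was 919, 868 and 1077. All 6 silenced libraries were thus below 5 of the 6 SCR libraries, and SCR replicate 2 was low among the controls, within the range of siPOLR1D2. The means were 4920 ± 1831 and 1240 ± 412 (SD, n = 6 each), a difference in mean log2(value + 1) of -1.92 (SE 0.31), 3.77-fold lower.

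ANXA3 and ANXA5 came next. ANXA3, a member linked to cell migration, had counts from 2323 over a median of 4147 to 5107 in SCR cells, 2606, 2945 and 2220 with siPOLR1D2 and 1449, 2134 and 2078 with siPOLR1D3. Its log2 difference was -0.85 (SE 0.19), and SCR replicate 2 was again the control inside the silenced range. ANXA5 ranged from 4844 over 5946 to 11003 in SCR cells and was 5050, 4874 and 2557 with siPOLR1D2 and 3665, 3842 and 3595 with siPOLR1D3. Its log2 difference was -0.79 (SE 0.21), and only SCR replicate 6 overlapped the silenced range. The highest ANXA5 counts were those of SCR replicates 3 and 2.

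ANXA1, ANXA3 and ANXA5 were the 3 of 9 tested members called in SW480 (adjusted p under 0.05 in limma over 15019 genes), all lower, beside 6.73% of all genes called and 4.29% called lower. Without SCR replicate 3, ANXA1 was the 1 member called, beside 547 of 15211 genes. Without SCR replicate 2, ANXA2 was called in place of ANXA5, beside 855 of 15253. ANXA5 was also lost without SCR replicate 4, siPOLR1D2 replicate 3 or any siPOLR1D3 library, where 534 to 628 genes were called in all. Since this contrast chose the members, nothing is read from the count. The log2 difference was negative for 8 of the 9 members with a median of -0.36, and the median of all genes was 0.01. All genes split into 367 called higher and 644 lower, a split that became 568 and 461 when libraries were scaled to their sums and 550 and 481 with upper quartile normalization, while the same 3 members were called lower under both scalings. ANXA10 did not reach the filter of at least 10 in 6 libraries.

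ANXA2 lay just outside the threshold. It forms a complex with S100A10 that binds plasminogen, and its count was 23728 at the lowest, 35123 at the median and 41525 at the highest in SCR cells. With siPOLR1D2 it was 21260, 21333 and 21588, and with siPOLR1D3 it was 27994, 26792 and 28841. The siPOLR1D2 libraries were below all SCR libraries, whereas the siPOLR1D3 libraries were above SCR replicate 2 and below the other 5. The log2 difference of ANXA2 was -0.49 (SE 0.14), and that of ANXA5, just inside the threshold, is given above.

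The remaining members in SW480 were not called. ANXA4 had a log2 difference of -0.36 (SE 0.14), from 1888 to 3574 in SCR and from 1593 to 2036 in silenced libraries. ANXA11, a long-tailed member that tethers RNA granules to lysosomes, had -0.32 (SE 0.11), with counts from 1780 to 2219 in SCR cells, 1690, 1747 and 1988 with siPOLR1D2 and 1409, 1405 and 1431 with siPOLR1D3. All siPOLR1D3 libraries and siPOLR1D2 replicates 1 and 2 were below every SCR library of ANXA11, and siPOLR1D2 replicate 3 was not. ANXA6 had -0.27 (SE 0.26) and ANXA7, first described as synexin, -0.19 (SE 0.10). ANXA13 stayed between 4.28 and 30.3 in all 12 libraries, with a log2 difference of 0.26 (SE 0.40).

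**Figure D2:**
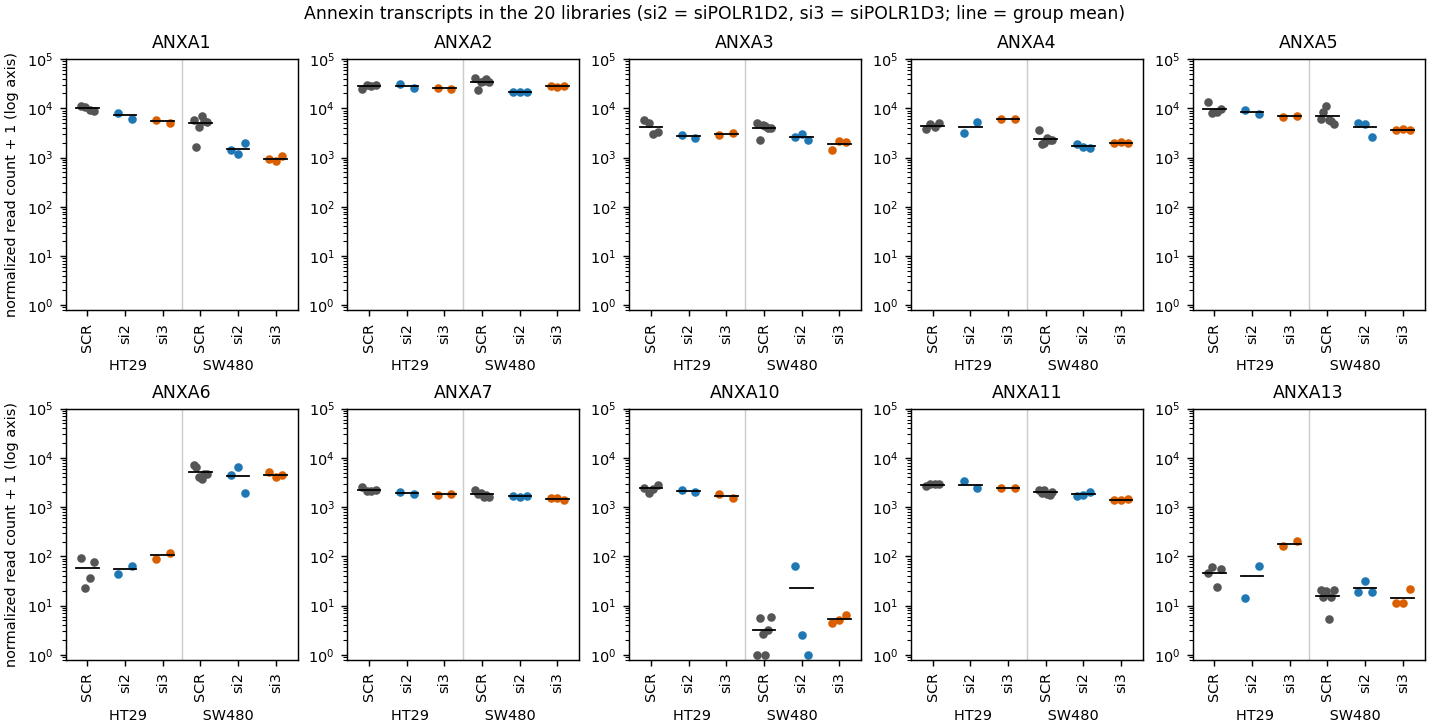
Normalized read count plus 1 (log axis) of each annexin in every library, by line and siRNA; points are libraries and bars are group means, and values of the lines were normalized separately. In HT29 ANXA1 is at 8654 or more in SCR and at 8219 or less in silenced libraries, and ANXA10 is at 63.5 in a single SW480 library.

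ANXA10 was nearly absent from SW480 except in siPOLR1D2 replicate 1. Its count there was 63.5, and in the other 11 SW480 libraries it was between 0 and 5.46. The 63.5 is 2.65% of the mean in HT29 SCR cells, next to the 2.84% of the 12 other HT29 genes in that library. Without this library ANXA1, ANXA3 and ANXA5 were again the members called in SW480, beside 876 of 15229 genes.

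Several annexins differed between the sides of the SW480 libraries as well. The split is drawn from all genes and is not a batch named in the labels. ANXA6 was 7222, 6537 and 4148 in the SCR libraries of side A and 3797, 4705 and 4631 in those of side B, and with siPOLR1D2 it was 4475 and 6651 on side A and 1899 on side B. ANXA5 with siPOLR1D2 was also lowest on side B. Within side B, 3 SCR against 4 silenced libraries, the log2 difference of ANXA1 was -2.37 (SE 0.25), that of ANXA3 -1.07 (SE 0.14), of ANXA5 -0.67 (SE 0.14) and of ANXA2 -0.49 (SE 0.11). Within side A, 3 against 2 libraries, they were -1.40 (SE 0.48), -0.45 (SE 0.33), -0.72 (SE 0.26) and -0.60 (SE 0.26). All 4 were lower on both sides. With the side as a covariate ANXA1 was at -1.97 (SE 0.30), and ANXA1, ANXA2, ANXA3 and ANXA5 were the members called. Genes called in all were then 1993 of 15019, against 1011 without the covariate.

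**Figure D3:**
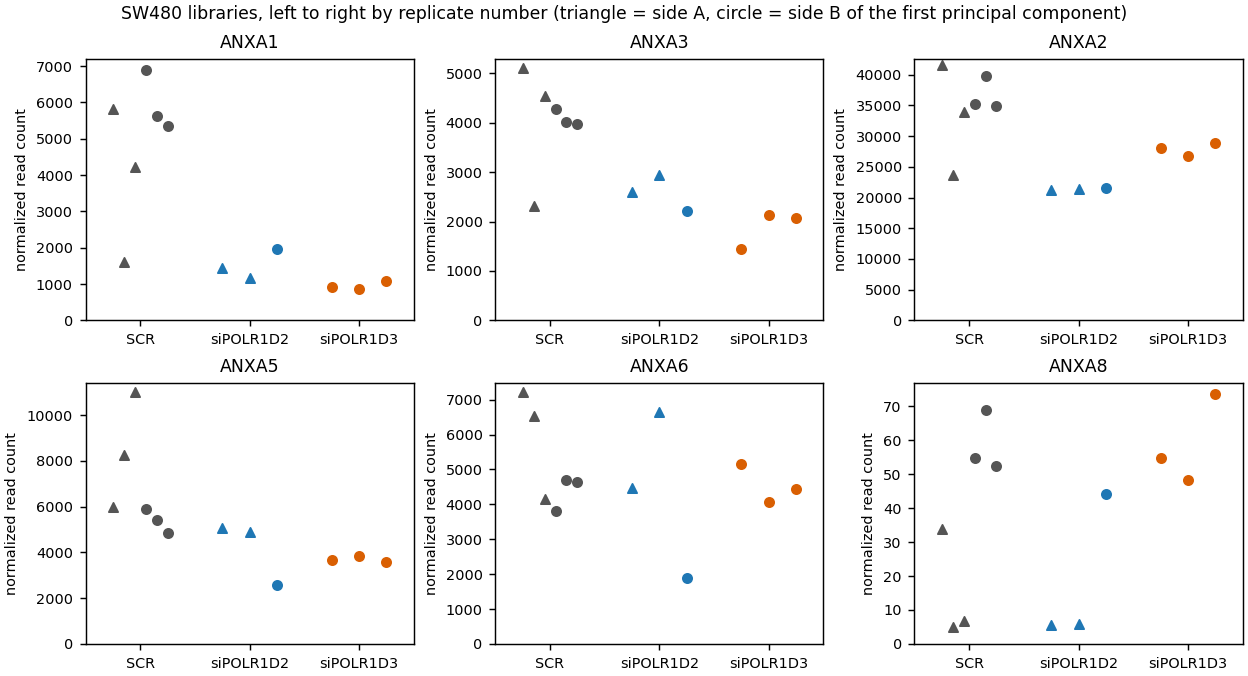
Normalized read count of 6 annexins in the 12 SW480 libraries by siRNA, with libraries of side A as triangles and of side B as circles. The 2 silenced triangles of ANXA1 (both siPOLR1D2) lie below all SCR triangles, the lowest being SCR replicate 2 at 1616, and the 4 silenced circles lie below all SCR circles, whereas ANXA8 separates the sides in SCR and silenced cells.

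In HT29, ANXA1 was lower after silencing too, from a higher start. Its count was 11182, 10619, 9267 and 8654 in SCR replicates 1 to 4, 8219 and 6125 with siPOLR1D2 and 5718 and 5118 with siPOLR1D3. All 4 silenced libraries were below all 4 SCR libraries. The means were 9930 ± 1171 (SD, n = 4) and 6295 ± 1348 (SD, n = 4), a log2 difference of -0.67 (SE 0.16) or 1.59-fold lower. ANXA7 was likewise without overlap, from 2108 to 2519 in SCR and from 1799 to 2003 in silenced libraries, with a log2 difference of -0.26 (SE 0.10). These were 2 of 10 members with silenced libraries wholly below SCR, beside 4.17% of all genes in HT29, where in SW480 there was no such member beside 2.88% of all genes.

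The other HT29 members overlapped between SCR and silenced cells. ANXA3 was 5684, 5077, 2957 and 3228 in SCR, 2873 and 2499 with siPOLR1D2 and 2852 and 3202 with siPOLR1D3, so that SCR replicates 1 and 2 were high and the other SCR libraries lay close to the silenced ones. ANXA10 was 2414, 1977, 2363 and 2837 in SCR, 2239 and 1998 with siPOLR1D2 and 1848 and 1533 with siPOLR1D3, a log2 difference of -0.33 (SE 0.15). ANXA5 had -0.35 (SE 0.18), ANXA11 -0.12 (SE 0.12) and ANXA2 -0.06 (SE 0.11). In ANXA5, ANXA10 and ANXA11 both siPOLR1D3 libraries lay below all 4 SCR libraries, and at least 1 siPOLR1D2 library did not.

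Some members were higher with siPOLR1D3 in HT29. ANXA13 was 45.1, 60.9, 22.7 and 55.3 in SCR, 13.4 and 62.8 with siPOLR1D2, and 160 and 200.2 with siPOLR1D3. ANXA4 was 3770, 4774, 4129 and 4930 in SCR, 3108 and 5258 with siPOLR1D2, and 6200 and 6048 with siPOLR1D3. In both genes the siPOLR1D3 libraries were above every other HT29 library. ANXA6 stayed between 22.04 and 119 in all 8 libraries. With the siRNAs pooled, the log2 differences were 0.74 (SE 0.74) for ANXA13, 0.19 (SE 0.21) for ANXA4 and 0.58 (SE 0.47) for ANXA6.

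No member was called in HT29 by limma, beside 0.0% of the 13274 genes tested. At an unadjusted p under 0.05 there were 4 of 10 members and 10.7% of all genes. The log2 difference was negative for 7 of the 10 members, with a median of -0.19, where that of all genes was near 0. ANXA2 turned to 0.02 when libraries were scaled to their sums. Without SCR replicate 1, the library set apart, the same 7 members were negative and 0 were called, beside 0 of 13496 genes. ANXA1 was at -0.61 (SE 0.15), ANXA3 at -0.36 (SE 0.17) and ANXA7 at -0.20 (SE 0.09). ANXA5 then moved from -0.35 to -0.19 (SE 0.12) and ANXA6 from 0.58 to 0.88 (SE 0.44). The summed relative level of the 10 members was 3367 ± 160 in SCR and 3087 ± 157 in silenced HT29 cells (SD, n = 4 each). The lowest HT29 SCR library, at 3165, lay below the highest silenced library, at 3321. In SW480 the summed relative level was 2866 ± 397 and 2008 ± 203 (SD, n = 6 each). There too the lowest SCR library, at 2116, lay below the highest silenced library, at 2219. The share of ANXA1 in that sum went from 15.4% to 11.2% in HT29 and from 7.75% to 3.07% in SW480.

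The responses of the lines are set side by side as a description. The log2 difference of ANXA1 was -1.92 in SW480 and -0.67 in HT29, which leaves -1.24 (SE 0.42) between them in a fit of all 20 libraries. This gap chose the gene and was not tested. POLR1D itself was 2.05-fold lower in SW480 and 1.64-fold lower in HT29, and the part of this in the gap was not tested. For ANXA6 the gap was -0.85 (SE 0.52), for ANXA4 -0.55 (SE 0.25), for ANXA5 -0.43 (SE 0.30), for ANXA2 -0.43 (SE 0.20) and for ANXA3 -0.33 (SE 0.31). It was -0.48 (SE 0.81) for ANXA13 and -0.20 (SE 0.16) for ANXA11. The gap was positive for ANXA7, at 0.07 (SE 0.14), and for ANXA10, at 1.40 (SE 1.07), a value that includes the SW480 library with HT29 transcripts.

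Each siRNA alone gave the same direction for ANXA1 in both lines. The 2 comparisons of a line share its SCR libraries. In SW480 the log2 difference of ANXA1 was -1.59 (SE 0.36) with siPOLR1D2 and -2.24 (SE 0.36) with siPOLR1D3, and in HT29 it was -0.48 (SE 0.17) and -0.87 (SE 0.17). For ANXA3 the values were -0.61 (SE 0.22) and -1.08 (SE 0.22) in SW480 and -0.60 (SE 0.27) and -0.43 (SE 0.27) in HT29. Members called in SW480 were ANXA1 and ANXA2 with siPOLR1D2, beside 7.4% of 16007 genes, and ANXA1, ANXA3 and ANXA11 with siPOLR1D3, beside 6.2%. Without siPOLR1D2 replicate 1, the library with HT29 transcripts, 0 members were called with siPOLR1D2, and without siPOLR1D2 replicate 2 also 0. Genes called in all were then 421 of 16437 and 568 of 16436, against 1185 with all libraries. Without siPOLR1D3 replicate 1 or 3, ANXA1 was the 1 member called with siPOLR1D3. Genes called in all were then 115 of 16370 and 155 of 16394, against 993. With the side as a covariate the members called were ANXA1, ANXA2 and ANXA5 with siPOLR1D2, beside 2216 of 16007 genes. With siPOLR1D3 they were ANXA1, ANXA3 and ANXA11, beside 901 of 16007. These contrasts entered the choice of members, so nothing is read from the counts. No member was called with either siRNA in HT29, beside 0.0% of 14032 genes each, and at an unadjusted p under 0.05 there was 1 member with siPOLR1D2 (4.43% of all genes) and 4 with siPOLR1D3 (7.97%).

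**Figure D4:**
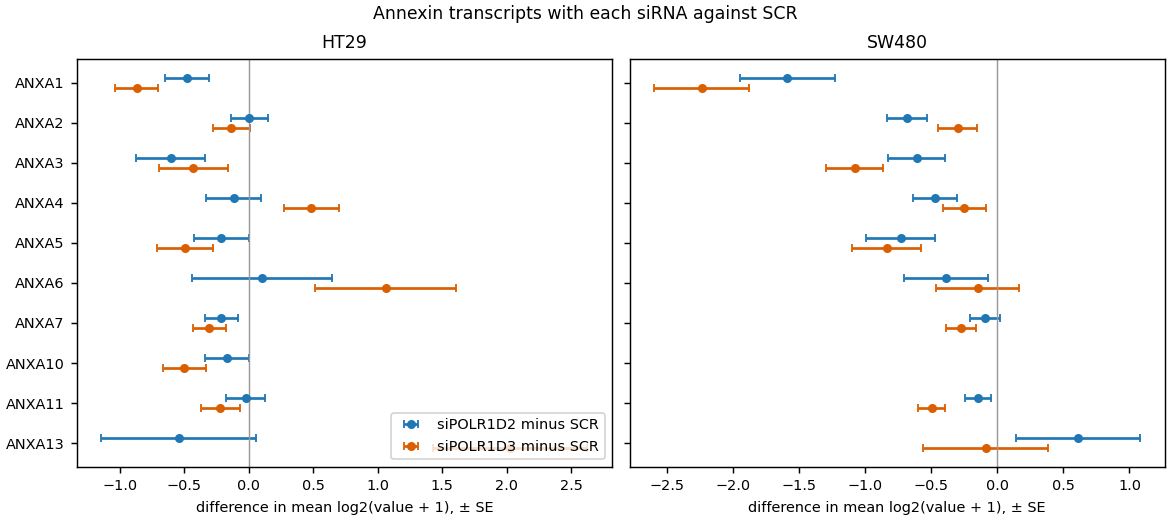
Difference in mean log2(value + 1) from SCR with siPOLR1D2 and siPOLR1D3 for each tested annexin in HT29 and SW480; points are limma estimates and bars their SE. ANXA1 lies left of 0 with both siRNAs in both lines, between -0.48 and -2.24, and ANXA13 lies at -0.54 and 2.03 in HT29.

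The siRNAs were also set against each other. This difference is that of the contrasts of each siRNA with SCR, which entered the choice of members, so it is given as a description. In SW480 all siPOLR1D3 libraries are on side B and 2 of 3 siPOLR1D2 libraries on side A, so that the siRNA and the side can be told apart only through siPOLR1D2 replicate 3 and the SCR libraries. The SW480 difference siPOLR1D3 minus siPOLR1D2 was 0.38 (SE 0.17) for ANXA2, with all 3 siPOLR1D3 libraries above all 3 siPOLR1D2 libraries, and 0.29 (SE 0.19) with the side as a covariate. For ANXA11 it was -0.35 (SE 0.12), with all 3 siPOLR1D3 libraries below, and -0.31 (SE 0.13) with the covariate. For ANXA1 it was -0.65 (SE 0.42), again with all 3 below, and -1.14 (SE 0.38) with the covariate. By limma 0 of 9 members were called, beside 2.94% of 16007 genes, and 2 members and 21.3% of all genes had an unadjusted p under 0.05. With the covariate the genes called in all went from 471 to 216, with 0 members among them. In HT29 the difference was 2.57 (SE 0.69) for ANXA13 and 0.60 (SE 0.25) for ANXA4, each higher in both siPOLR1D3 libraries. Here 0 of 10 members and 0.0% of 14032 genes were called by limma, and 2 members and 1.69% of all genes had an unadjusted p under 0.05.

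Another 7 names begin with ANXA. ANXA9, an annexin whose calcium sites are degenerate, was between 302 and 610 in HT29 and between 31.7 and 72.5 in SW480, and its log2 difference was -0.16 (SE 0.19, adjusted p = 0.747 in limma) and -0.33 (SE 0.24, adjusted p = 0.452 in limma). ANXA8 and its near-identical copy ANXA8L1 can share reads, so the values of each are uncertain. In SW480 ANXA8 lay with the sides, and its silenced minus SCR difference was 0.05 (SE 0.79, adjusted p = 0.978 in limma). It was between 44.3 and 73.5 in the 7 libraries of side B, SCR and silenced alike, and between 5.004 and 6.74 in 4 libraries of side A, with SCR replicate 1 at 33.8. ANXA8L1 was between 21.0 and 52.0 on side B and between 1.66 and 18.5 on side A. In HT29 both were at 6.39 or less. The pseudogenes ANXA2P1, ANXA2P2 and ANXA2P3, which may take reads from ANXA2, were at most 30.8, 15.5 and 1.54. ANXA2R, which encodes a putative receptor for annexin A2 and is no annexin, was at most 27.6 in HT29 and 6.87 in SW480.

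The partners of the annexins were read from lists by function, which did not enter the choice of members. In SW480, 6 of 30 tested partner genes passed the threshold of limma, 1 higher and 5 lower, beside 6.73% of all genes, and 13 had an unadjusted p under 0.05, beside 23.2%. In HT29 0 of 24 passed, beside 0.0%, and 5 had an unadjusted p under 0.05, beside 10.7%. Without SCR replicate 1 of HT29 the count there was again 0, beside 0 of 13496 genes. Within side B of SW480 10 partner genes were called, beside 1939 of 15553 genes in all. Within side A, with 3 against 2 libraries, there were 0, beside 0 of 15110. Without siPOLR1D2 replicate 1 there were 8, beside 876 of 15229. Among the 7 partners with EF-hand or scaffold roles, S100A10, the small light chain that joins annexin A2 at the membrane, fell in SW480. It averaged 1620 ± 365 without and 1022 ± 203 with silencing (SD, n = 6 each), a log2 difference of -0.66 (SE 0.16, adjusted p = 0.0300 in limma). The log2 difference was -0.45 (SE 0.26) within side A and -0.72 (SE 0.13) within side B. The silenced S100A10 counts reached from 723 to 1262 and overlapped SCR replicate 2, at 1218. The call was lost, at -0.56 to -0.67, when SCR replicate 3 or 4, siPOLR1D2 replicate 3 or any siPOLR1D3 library was left out.

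PDCD6, known as ALG-2, is a calcium-binding partner of annexins A7 and A11, and it rose in SW480. Its count was 2044 ± 229 in SCR and 3197 ± 567 in silenced cells (SD, n = 6 each), and the log2 difference was 0.63 (SE 0.13, adjusted p = 0.0137 in limma). PDCD6 was between 1761 and 2319 in SCR cells, and 5 of 6 silenced libraries were at 2799 or more, siPOLR1D2 replicate 2 being at 2273. Within side A the difference of PDCD6 was 0.32 (SE 0.19) and within side B 0.78 (SE 0.11). In HT29 PDCD6 differed by 0.21 (SE 0.13, adjusted p = 0.551 in limma). S100A11, the partner of annexin A1, had a log2 difference of -0.80 (SE 0.26, adjusted p = 0.0790 in limma) in SW480 and -0.30 (SE 0.11, adjusted p = 0.430) in HT29. In SW480 S100A11 passed with the side as a covariate, at -0.65, within side B, at -0.85, and without siPOLR1D2 replicate 1, at -0.94. Within side A it had -0.37 (SE 0.23). The other partners named for a member, S100A6 (annexin A11) and SRI or sorcin (annexin A7), had -0.31 (SE 0.21, adjusted p = 0.405 in limma) and -0.03 (SE 0.15, adjusted p = 0.942) in SW480. AHNAK, a scaffold bound by the annexin A2 complex, had -0.54 (SE 0.19, adjusted p = 0.107 in limma) in SW480 and 0.44 (SE 0.15, adjusted p = 0.409) in HT29.

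TSC22D3, which encodes GILZ and is like ANXA1 a classical glucocorticoid-induced gene, fell the most among the partner genes. Its count was from 63.3 to 124 in SW480 SCR cells, 15.9, 21.5 and 24.97 with siPOLR1D2 and 45.5, 18.5 and 19.8 with siPOLR1D3. The groups did not overlap, as for 2.88% of all genes, and the log2 difference was -1.92 (SE 0.28, adjusted p = 0.00297 in limma). Within side A it was -2.36 (SE 0.42) and within side B -1.62 (SE 0.36). In HT29 TSC22D3 was 287, 186, 59.0 and 121 in SCR and between 67.7 and 78.1 in silenced cells, with -0.96 (SE 0.41, adjusted p = 0.454 in limma), or -0.61 (SE 0.33) without SCR replicate 1. It was 1 of 4 tested genes of the glucocorticoid list called in SW480. The other 3 did not pass. FKBP5 had 0.08 (SE 0.17), PER1 -0.48 (SE 0.25) and NR3C1, the glucocorticoid receptor, -0.32 (SE 0.45). In HT29 NR3C1 was between 3.29 and 9.89. The receptors of annexin A1 were near 0, with FPR1 at most 5.93 and FPR2 at most 2.01 in any library, and FPR3 was at most 38.8.

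In the membrane repair list 2 of 8 genes were called in SW480, both lower. MYOF, which encodes myoferlin of the dysferlin family, was 8733 ± 3084 in SCR and 4592 ± 1240 in silenced cells (SD, n = 6 each), with a log2 difference of -0.92 (SE 0.22, adjusted p = 0.0257 in limma). Without SCR replicate 4, siPOLR1D2 replicate 3 or siPOLR1D3 replicate 1 or 3 it did not pass, at -0.78 to -0.91. The difference of MYOF was -0.58 (SE 0.34) within side A and -1.04 (SE 0.16) within side B. DYSF, which encodes dysferlin itself and is named here after its value was seen, had 0.95 (SE 0.29, adjusted p = 0.0631 in limma), opposite in sign to MYOF. DYSF passed with the side as a covariate, at 0.84, within side B, at 1.21, and without siPOLR1D2 replicate 1, at 1.07, and had 0.30 (SE 0.39) within side A. CAPNS1, the small subunit of the calpains, had 0.28 (SE 0.10, adjusted p = 0.120 in limma). The calpain gene CAPN2, named here after its value was seen, went the other way, at -0.61 (SE 0.21, adjusted p = 0.105 in limma). CAPN2 passed with the side as a covariate, at -0.49, and within side B, at -0.48, and had -0.51 (SE 0.24) within side A. CAPN1 had -0.06 (SE 0.21). PDCD6IP or ALIX, which recruits ESCRT proteins and binds ALG-2, had -0.30 (SE 0.08, adjusted p = 0.0351 in limma), a call that was lost when libraries were scaled to their sums or with upper quartile normalization, at -0.23 each, with no filter on low values or no mean-variance trend, at -0.30 each, within side B, at -0.22, and within side A, at -0.38, and without any of 9 single libraries, at -0.26 to -0.32 (all except SCR replicates 1 and 6 and siPOLR1D2 replicate 2).

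Among the 5 genes that move phosphatidylserine, the lipid bound by annexin A5, ANO6 fell in SW480 and the other 4 were not called. XKR8, a scramblase gene named after its value was seen, had 1.25 (SE 0.37, adjusted p = 0.0555 in limma) and passed, at 1.16, with the side as a covariate. The scramblase gene ANO6 was 5377 ± 1355 in SCR and 2962 ± 573 in silenced SW480 cells (SD, n = 6 each), without overlap, and its log2 difference was -0.85 (SE 0.17, adjusted p = 0.0135 in limma). Within side A it was -0.84 (SE 0.25) and within side B -0.75 (SE 0.15). In HT29 ANO6 was from 5731 to 7904 in SCR and from 3989 to 5319 in silenced cells, with -0.54 (SE 0.13, adjusted p = 0.355 in limma). None of the 5 plasminogen genes was called in either line, and PLG itself was at most 21.6 in any library. The members listed here were set down with earlier results of these data known, and the differences between the lines were not called for any partner gene in the interaction test of limma.

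**Figure D5:**
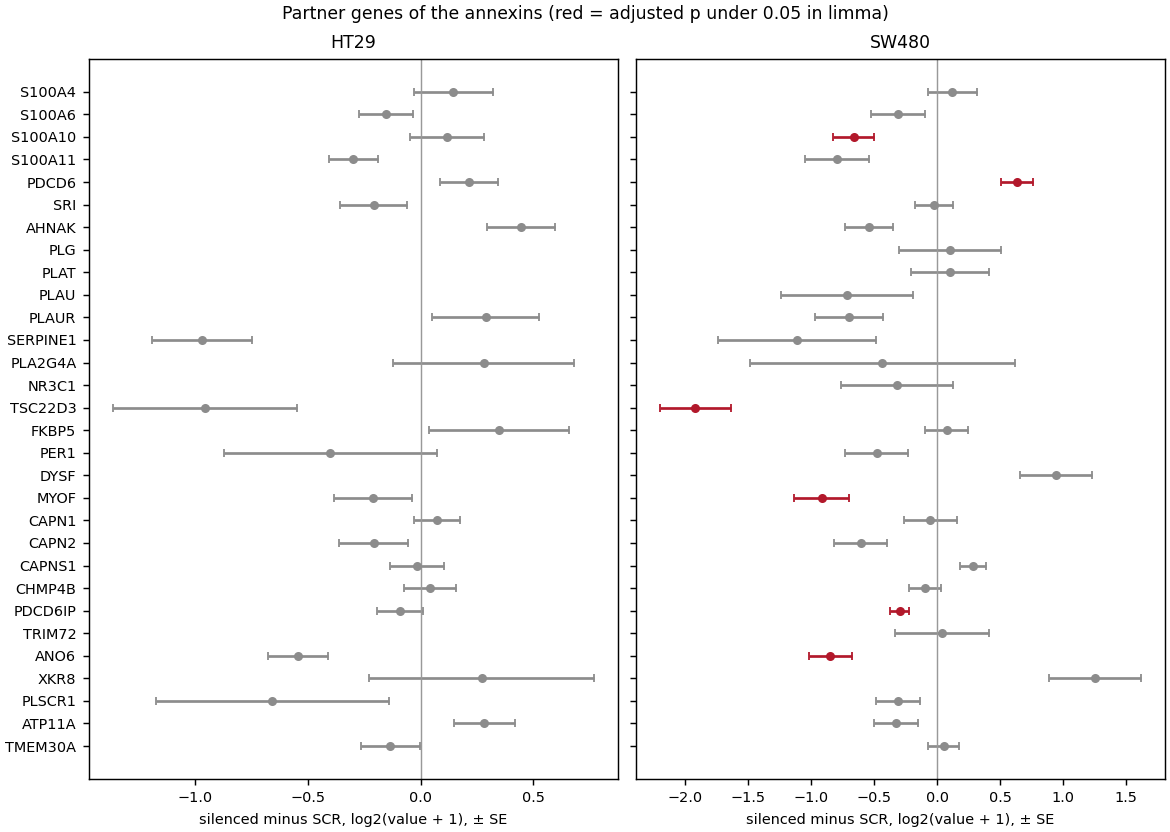
Silenced minus SCR difference in mean log2(value + 1) for the partner genes tested in HT29 and SW480; points are limma estimates, bars their SE, and red marks an adjusted p under 0.05. The 6 red points are all in SW480, with TSC22D3 the lowest at -1.92 and PDCD6 the highest at 0.63.

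The genes with the pattern most like that of ANXA1 over the 12 SW480 libraries were RPS6KA2, GPRC5A, ADAMTS16, GPAT3 and DCLK1. Likeness was the mean absolute difference of log2 values centred on each gene's own mean, and the points share libraries, normalization and the fall after silencing. RPS6KA2, which encodes a ribosomal S6 kinase, differed from ANXA1 by 0.21 on the log2 scale, GPRC5A, a retinoic acid-induced receptor, by 0.26, ADAMTS16, an extracellular protease, by 0.33, GPAT3, an enzyme of glycerolipid synthesis, by 0.37 and DCLK1, a microtubule-associated kinase, by 0.41, where the median over 15018 genes was 1.08. RPS6KA2 was 363 ± 126 in SCR and 107 ± 28.6 in silenced SW480 cells (SD, n = 6 each), and GPRC5A was 571 ± 202 and 148 ± 36.2. In HT29 the means of GPRC5A were 1648 in SCR and 1569 in silenced cells, those of GPAT3 959 and 515, and RPS6KA2 was at 9.17 and 7.39. Of the other members ANXA3 was closest to ANXA1, at 0.59 and place 46.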

How the data were processed

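Paired-end reads of a captured coding transcriptome were quantified per library by the authors with kallisto (version 0.44.0, hg38, with FastQC 0.11.5, per the labels), and the read counts were normalized with DESeq2 (version 1.24.0). The transcript index is not given in the sources used here. The signal values that the authors deposited are these normalized read counts, 1 file per library with 40117 rows. They are not whole counts, since between 31.1% and 55.5% of low values, up to 20 reads, were within 0.02 of a multiple of the value taken as 1 read. Reads behind single genes are therefore unknown and no counting interval is given. The test was therefore limma (version 3.58.1, R 4.3.3) on log2(value + 1), not a count model.

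Rows that share a name were summed to 36346 names, and each member had 1 row. Each line was fitted alone with a mean-variance trend and no covariate, silenced against SCR and with each siRNA apart. A gene was tested when the number of libraries with a value of 10 or more was no smaller than the smaller group, with Benjamini-Hochberg adjustment over all of them and a threshold of 0.05. The members, the partner lists and the tests were chosen with earlier results of these data known, and the length used for levels, the transcripts of the other line and the motifs after the values were seen. 1 gene was left out of the partner lists and is not reported here, and the partner genes not named are in the counts. The text names all members, other names beginning with ANXA, partner genes that passed, are named for a member or are near 0, and the 5 genes nearest to ANXA1. Some other partner genes are named as well, such as the calpain genes, DYSF and XKR8. The labels do not say whether replicates came from separate cultures, so p values measure the spread between these samples. Alternatives were other pseudocounts (0.5 and 10), no filter, library-sum and upper quartile scaling, no trend, the highest row of a name, each library left out, the replicate block, all 20 libraries in 1 fit and the side of the first component (for each siRNA alone, added later). Tables and figures were made with Python 3.11.15.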

Additional observations from a re-analysis of the deposited data

Results flagged for a closer look

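Over 40 groups of 4 or 6 libraries, 4 held a member whose extreme library was far from the others by Dixon's criterion, where chance gives about 1 in 20. ANXA10 was at 63.5 in SW480 siPOLR1D2 replicate 1, the library that also held other transcripts of HT29, and at 5.46 or less in the other silenced SW480 libraries. ANXA4 was at 3574 in SW480 SCR replicate 1, where the other SCR libraries were at 2442 or less. ANXA11 was at 3322 in HT29 siPOLR1D2 replicate 1 and at 2469 or less in the other silenced HT29 libraries. ANXA13 was at 4.28 in SW480 SCR replicate 4, where the SCR median was 16.3.

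For AHNAK and ATP11A, every silenced library was above the SCR mean in HT29 and below it in SW480. The SW480 minus HT29 difference in response was -0.99 (SE 0.27) for AHNAK (adjusted p = 0.249 in the interaction test of limma) and -0.61 (SE 0.25) for ATP11A (adjusted p = 0.5004 in the same test), so neither passed the threshold.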

How the results depend on the processing

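Members called by limma after silencing numbered 3 in SW480 and 0 in HT29. With single libraries left out they numbered 1 to 3 in SW480, beside 534 to 1283 genes in all, and 0 in HT29, beside at most 1. Within side A of SW480, with 3 against 2 libraries, they numbered 0, beside 0 of 15110 genes. Residuals of same-numbered SW480 libraries had a mean correlation of 0.0127 over 6 pairs, from -0.595 to 0.391, and the 30 other pairs -0.00862. The mean was -0.0298 over 4 same-numbered pairs in HT29. The replicate numbers thus gave no sign of pairing. SCR replicates 4 to 6 of SW480 and 3 and 4 of HT29 have no silenced library of the same number. A separate set of controls for each siRNA was not tested, and both siRNA comparisons used all SCR libraries of their line. With the replicate block, 0 members and 0 partner genes were called in SW480, where 0 genes were called in all against 1011 without it, and 2 members (ANXA1 and ANXA3) and 3 partner genes in HT29, where 735 genes were called against 0. SCR libraries without a silenced library of their number do not enter that comparison. It therefore rests on SCR replicates 1 to 3 in SW480 and 1 and 2 in HT29, where replicate 1 is the library set apart. The counts with the block thus also reflect fewer controls. With each siRNA, members called in SW480 ranged from 0 to 3 for siPOLR1D2 and from 1 to 4 for siPOLR1D3 over single libraries left out. Genes called in all then ranged from 421 to 1794 for siPOLR1D2 and from 115 to 1345 for siPOLR1D3. Partner genes called in SW480 numbered 6, and from 3 to 8 over single libraries left out. They numbered 11 with the side as a covariate (1993 of 15019 genes in all), 10 within side B (1939 of 15553) and 0 within side A (0 of 15110). Members without overlap between the SCR libraries of the lines numbered 7, and 6 to 8 over all alternatives. No member called in SW480 changed its direction under any of 24 alternatives, and ANXA1 was called in 22, ANXA3 in 21 and ANXA5 in 13 of them. S100A10 in HT29 turned to -0.032 without SCR replicate 1, its values over single libraries left out reaching from -0.032 to 0.21, and the siPOLR1D3 minus siPOLR1D2 difference of ANXA11 in HT29 turned to 0.042 without siPOLR1D2 replicate 1, with values from -0.43 to 0.042. Among differences that were not called, ANXA2 in HT29 turned to 0.02 when libraries were scaled to their sums, and ANXA13 in SW480 to -0.03 without SCR replicate 4 and to -0.05 with the replicate block. Low values limit ANXA13 in both lines, ANXA6 in HT29 and ANXA10 in SW480, whose reads per library are few.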
